A study of Mus musculus with 2 samples.

Results

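On expression arrays some probe sets match the transcripts of more than 1 gene, and an analysis that keeps only probe sets with 1 gene symbol leaves them out. Here they were taken up on their own: 691 of the 22690 probe sets on the array carried 2 or more gene symbols in the platform annotation, after 64 control probe sets had been set aside. A further 20380 probe sets had 1 symbol and 1555 had none. The shared probe sets carried 465 different combinations of symbols, called symbol groups below, and 1161 symbols in all. Of those symbols 395 were predicted genes, clones or pseudogenes and 766 were named genes, and 547 of the named genes had no probe set of their own on the array. For these 547 genes a shared value is the sole measurement in the data.

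The arrays measured total RNA of teratomas, tumours in which pluripotent cells form a mixture of tissues. A B6 ES array held RNA from embryonic stem cell tumours (strain C57BL/6, B6), and an EiPS array held RNA from tumours of induced pluripotent stem cells, whose source is given as 1E12 iPS and whose tumours are described as regression teratomas. All cells had been placed under the skin of male B6 mice and the tumours were removed after 6 weeks. Each array held RNA pooled from 2 tumours, so each group is 1 array with no replicate, and no test of a difference between the groups can be made. Host blood, vessel and stroma cells are part of such a tumour, and in a bulk sample fewer cells of a type and less RNA per cell cannot be told apart.

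Genes that share a probe set arise in several ways. Tandem duplication gives clusters of nearly identical neighbours, such as the adult globin genes, the Xlr genes of the X chromosome or the class I genes of the major histocompatibility complex. Reverse transcription of abundant messages, above all those of ribosomal proteins, leaves processed pseudogenes scattered over other chromosomes. In other cases neighbouring or overlapping genes share transcribed sequence, or a small RNA lies inside its host transcript. By this division 239 of the 691 probe sets joined named paralogues, and 325 joined a single named gene to predicted or pseudogene symbols. Differently named genes were joined by 96, predicted or pseudogene symbols only by 21, and 10 carried a small RNA symbol.

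How alike such genes are can be seen just before their start sites. The 120 bases before the start of 4 globin genes and 4 Xlr genes are printed below as transcribed, from RefSeq on GRCm38.p6, because their probe sets carry several near-identical neighbours and are described first. Capitals mark CCAAT and TATAA on either strand (also read as ATTGG and TTATA), which occur in 21.3% and 11.8% of 32851 RefSeq windows of 120 bases. The probes lie in the transcripts and not in these windows. A match is a description of the letters.
Hba-a1, chr11:32283552-32283671, plus strand: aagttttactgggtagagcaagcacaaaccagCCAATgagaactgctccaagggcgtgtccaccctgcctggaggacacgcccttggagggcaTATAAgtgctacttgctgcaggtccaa
Hba-a2, chr11:32296372-32296491, plus strand: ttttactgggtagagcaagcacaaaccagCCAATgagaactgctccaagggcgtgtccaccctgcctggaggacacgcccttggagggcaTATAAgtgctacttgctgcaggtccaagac
Hbb-bs, chr7:103827929-103828048, minus strand: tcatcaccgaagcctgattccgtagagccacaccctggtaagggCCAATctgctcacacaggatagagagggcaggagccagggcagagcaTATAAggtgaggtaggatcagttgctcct
Hbb-bt, chr7:103813924-103814043, minus strand: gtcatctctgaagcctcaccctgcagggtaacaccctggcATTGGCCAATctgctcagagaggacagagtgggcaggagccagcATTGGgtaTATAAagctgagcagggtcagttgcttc
Xlr3b, chrX:73192059-73192178, plus strand: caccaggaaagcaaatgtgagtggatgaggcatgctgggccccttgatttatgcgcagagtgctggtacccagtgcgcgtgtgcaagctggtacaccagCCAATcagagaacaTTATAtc
Xlr3c, chrX:73265391-73265510, minus strand: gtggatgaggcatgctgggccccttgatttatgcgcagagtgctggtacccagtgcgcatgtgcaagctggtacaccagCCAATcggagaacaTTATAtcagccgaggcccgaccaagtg
Xlr4a, chrX:73082508-73082627, minus strand: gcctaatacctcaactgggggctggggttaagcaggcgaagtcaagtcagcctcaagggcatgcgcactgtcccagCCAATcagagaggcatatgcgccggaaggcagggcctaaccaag
Xlr4b, chrX:73214213-73214332, plus strand: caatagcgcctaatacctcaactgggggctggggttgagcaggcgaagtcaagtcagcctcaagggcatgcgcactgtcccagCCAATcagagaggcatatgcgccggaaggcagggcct
Over the RefSeq windows of 300 bases around the start, Hba-a1 and Hba-a2 aligned over 297 bases and all 297 were identical. Xlr3b and Xlr3c were identical at 98.1% of aligned bases and Xlr4a and Xlr4b at 98.6%, while the beta globins Hbb-bs and Hbb-bt were identical at 74.7%.

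Signals are linear MAS5 units, scaled by the authors so that both arrays had the same mean of 500.2 after trimming 2% at each end. A signal at or under 26 was treated as not measured: this floor is the 90th percentile of 72 probe sets for chemosensory receptors, genes of smell and taste cells. A probe set above the floor on both arrays has a value of the difference, one above it on 1 array has only a bound ("at least"), and one under it on both was not compared. All log2 differences are EiPS minus B6 ES.

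Of the 691 shared probe sets, 516 were above the floor on both arrays, 37 on the EiPS array only, 8 on the B6 ES array only and 130 on neither. Among the 561 measured, 73 were at least 2-fold higher in EiPS, or 13%, against 6.75% of the 19053 measured probe sets of all kinds. These 73 came from 61 symbol groups. In the other direction 5 were at least 2-fold lower in EiPS, or 0.891%, against 3.14% of all. At the 4-fold level 18 shared probe sets were higher, 3.21% against 1.15% of all, and 0 were lower, against 0.241% of all. Of the measured probe sets 72% of the shared and 55.8% of all kinds had a higher signal in EiPS, at any size. The median log2 difference was 0.25, with the middle of the values between -0.04 and 0.53, against a median of 0.07 over all probe sets. When both arrays were given equal medians, which moved the median of all probe sets from 0.07 to -0.06, the shared median was 0.13. Among 27 gene groups with at least 3 measured probe sets, the median log2 difference ran from 2.22 for immunoglobulin chains to -0.83 for protocadherin alpha. Medians of small groups moved with the floor: with no floor these were 0.83 and 0.03, and with log2(signal + 64) 0.14 and -0.23.

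The Xlr genes of the X chromosome, which encode nuclear proteins related to those of the synaptonemal complex, gave the largest value measured on both arrays. Xlr4a, Xlr4b and Xlr4c shared a probe set with a signal of 31.7 in B6 ES and 518 in EiPS, 16.3-fold higher. Xlr3a, Xlr3b and Xlr3c shared one with 24.1 in B6 ES, under the floor, and 327 in EiPS, at least 12.6-fold higher. A further Xlr probe set, for Xlr5a, Xlr5b and Xlr5c, had 33.7 and 74.9, a log2 difference of 1.15. These signals in B6 ES lie close to the floor, so the size of the folds depends on it. With a floor of 49, the 98th percentile of the same receptors, both log2 differences are bounds, of at least 3.40 for Xlr4 and at least 2.74 for Xlr3. Both paralogue sets were far higher in EiPS, and no single Xlr gene can be named as the source. The other germ cell and cancer-testis probe sets of this group were low: Ssxb6 with Ssxb1 had 17.1 and 53.7, Pramel4 had 34.2 and 17.2, and 6 others, among them the Magea probe set, were under the floor on both arrays. Only 5 of the 11 probe sets of the group were measured, and 4 of them, or 80%, were at least 2-fold higher. The share was 13% over all shared probe sets. Of 5 measured probe sets of this group with 1 symbol, 1 was higher and 4 lower, with a median of -0.34. Among those, 0 were at least 2-fold higher.

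The globins, the oxygen carriers of red cells, are measured here almost wholly through shared probe sets. The probe set of Hbb-bs, Hbb-bt, Hbb-b1 and Hbb-b2 had 3341 in B6 ES and 10392 in EiPS, 3.11-fold higher. A set of 3 probe sets covered Hba-a1 and Hba-a2. They had 4670 and 12024, 4150 and 10733, and 484 and 2342, or 2.57-fold, 2.59-fold and 4.84-fold higher in EiPS. All 4 globin probe sets thus showed the same direction, with a median log2 difference of 1.50. The probe sets that carry an adult globin symbol alone gave smaller signals: Hba-a1 alone had 3.48 and 3.98, Hba-a2 alone 2.58 and 36.7, and a pair for Hbb-b2 had 124 and 188, and 2.32 and 83.9. Markers of red cells summed to 82.6 in B6 ES and 183 in EiPS over 4 genes, of which Alas2 had 21.2 and 105, Klf1 42.3 and 35.5, and Epb42 was under the floor on both. The part of red cell content in the globin difference was not tested.

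Immunoglobulin kappa light chains are made by B cells and plasma cells. Another 3 probe sets, shared by Igkc, Igkj1, Igkv4-53, Igkv6-23 and Igkv8-30, had 131 in B6 ES and 958 in EiPS, 162 and 887, and 81.3 and 378. These were 7.29-fold, 5.47-fold and 4.65-fold higher in EiPS. Igkv8-30 alone, on its own probe set, had 45.2 and 153, 3.39-fold higher. The other 11 immunoglobulin probe sets with several symbols were under the floor on both arrays in 9 cases and just above it on the EiPS array in the other two, the highest being Ighv1-72 with Ighm at 29.4. Of the probe sets for Ighm alone, the 5 above the floor on each array were 1.19-fold, 1.77-fold, 1.98-fold, 2.05-fold and 2.89-fold higher. Markers of B and plasma cells summed to 762 and 1514 over 5 genes, most of it from Sdc1, which epithelia also make. Jchain had 50.8 and 86.1, and Cd79a and Ms4a1 were under the floor on both arrays. Their part in the kappa difference was not tested.

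Class I genes of the major histocompatibility complex present antigen, and their shared probe sets had higher signals in EiPS. All 7 measured were higher, against 72% of all shared probe sets. Their median log2 difference was 0.80, which was 0.34 with no floor or a floor of 49 and 0.31 with log2(signal + 64). The probe set that reached 2-fold did so as a bound. H2-Q7 with H2-Q9 had 315 in B6 ES and 581 in EiPS. H2-T23, which encodes the Qa-1 antigen, shared one probe set with a pseudogene at 577 and 1006 and another at 14.9 and 57.1. H2-Q4 with H2-Q6 and H2-Q8 had 114 and 211. At the other end, the probe set of the classical genes H2-K1 and H2-D1 had 525 and 584. The differences therefore ran from 0.15 to 1.14. Of 20 measured class I probe sets with 1 symbol, 14 were higher and 6 lower, with a median of 0.39.

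H2-DMb1 and H2-DMb2 encode the beta chain of the H2-DM peptide exchanger of class II presentation, and their shared probe sets disagreed. One had 10.3 in B6 ES and 188 in EiPS, at least 7.23-fold higher. The other had 88.5 and 108, a log2 difference of 0.28, and H2-DMb2 alone had 43.2 and 39.9. The large value therefore rests on 1 probe set of 3. The starts of both genes aligned with 84.2% identity.

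Of 10 measured probe sets of interferon-induced families 8 were higher in EiPS, near the 72% of all shared probe sets, and 1 reached 2-fold. Their median log2 difference was 0.74. Ifi203 with its copies, the 1 at 2-fold, had 41.3 and 101, and 129 and 225 on another probe set. Gbp4 with Gbp8 had 28, just above the floor, and 6.26, at least 1.08-fold lower in EiPS. Gbp8 alone went the other way at 7.94 and 55.9, at least 2.15-fold higher. Tgtp1 with Tgtp2, GTPases that act against intracellular parasites, had 263 and 486. Ifi205 with Ifi211 had 368 and 624, and Trim34a with Trim34b 72.6 and 130. Isg15, a ubiquitin-like modifier, shared its probe set with a predicted gene at 378 and 561. The measured shared probe sets of the interferon alpha genes had low signals, at 50.7 and 30.3, and 46.7 and 19, lower in EiPS. Of the 4 measured interferon alpha probe sets with 1 symbol, 3 were higher, with a median of 0.35. Single-symbol probe sets of the induced families had a median of 0.63 over 33 measured.

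Chemokines of the lymphoid organs, which guide lymphocytes and dendritic cells that carry Ccr7, were higher in EiPS. A chemokine of skin varied by probe set. Ccl19 with its copies had 31.9 in B6 ES and 165 in EiPS, 5.18-fold higher. The Ccl21 genes had 177 and 368. The skin chemokine Ccl27a, with Ccl27b, had 699 and 719 on one probe set and 503 and 477 on another, while Ccl27a alone had 437 and 711. Both Ccr7 ligands were thus at least 2-fold higher, and the Ccl27 probe sets disagreed.

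Among receptors and other genes of myeloid cells, Lilrb4a with Lilr4b, inhibitory receptors, had 195 and 686, 3.51-fold higher in EiPS. The other measured probe sets of natural killer and myeloid receptors ranged from -0.06 to 0.35, and 4 of 9 were under the floor. The chitinase-like genes Chil3 and Chil4, products of activated macrophages and epithelia, shared a probe set with 2.95 and 140, at least 5.38-fold higher. Chil3 alone had 11.8 and 342, and Chil4 alone 26.8 and 98.9. All 3 were higher in EiPS. The anti-apoptotic Bcl2a1 genes had 184 and 490. Ctla2a with Ctla2b, cathepsin inhibitors, had 693 and 1868, 2.70-fold higher, between the values of Ctla2a alone at 3.11-fold and Ctla2b alone at 1.88-fold. C4a with C4b, genes of complement component C4, had 856 and 3525, 4.12-fold higher. The C1r proteases C1ra and C1rb had 36.1 and 72.6. Macrophage markers summed to 4006 and 4074 over 5 genes, with Cd68 at 372 and 778 and the other 4 a little lower in EiPS. Neutrophil markers summed to 380 and 997 over 4 genes. Neither list was tested for its part in these values.

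Secretory and barrier families of epithelia varied by tissue. Paneth cells at the base of intestinal crypts make alpha-defensins, and the probe set of Defa24 and Defa30 had 3.28 in B6 ES and 1131 in EiPS, at least 43.5-fold higher. This was the largest bound of all shared probe sets, and with a floor of 49 it is a log2 difference of at least 4.53. It rests on 1 probe set, of a design in which some probes match other sequences (_x_at). In the same group the pancreatic families of trypsinogen, amylase and elastase were under the floor on both arrays on all 4 probe sets. Of 23 measured probe sets of this group with 1 symbol, 14 were higher and 9 lower. Their median log2 difference was 0.13 and the largest was 1.43. Gut markers summed to 562 in B6 ES and 2884 in EiPS over 4 genes, with Tff3 at 331 and 2299, Krt20 at 51.9 and 266, Vil1 at 109 and 219 and Cdx2 at 70.4 and 99.1. Acinar markers summed to 259 and 413, with Cpa1 under the floor. Their part was not tested.

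Sprr2a1, Sprr2a2 and Sprr2a3 encode small proline-rich proteins of the cornified envelope, and their windows around the start were identical over all 300 bases between Sprr2a1 and Sprr2a2. Their probe sets had 1254 and 2927, and 1595 and 3710. Both were higher in EiPS, with log2 differences of 1.22 and 1.22. The probe set of Krt14 and Krt17 was near the floor at 16.7 and 31.6, and 4 of the 7 probe sets of this group, all for hair keratin-associated proteins, were under it. Epidermis markers summed to 2401 and 5930 over 5 genes, 3 of them at least 2-fold higher. Their part was not tested.

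Glandular families pointed both ways. Dcpp1, Dcpp2 and Dcpp3, the demilune cell and parotid proteins of salivary glands, had 10957 in B6 ES and 5938 in EiPS, 1.85-fold lower. Dcpp3 alone had 4535 and 2249, 2.02-fold lower, and Dcpp1 alone had 48.7 and 44.9. The kallikreins Klk1b26 and Egfbp2 had 69.3 and 6.71, at least 2.67-fold lower, and Egfbp2 alone had 60.2 and 23.2. The proline-rich protein genes Prb1 and Prpmp5 had 44.3 and 1.80, and Prpmp5 alone had 770 and 0.889, at least 29.6-fold lower. The spermine-binding proteins Sbp and Sbpl had 37.7 and 80.5. The median of the shared probe sets of this group was -0.36, and it was 0.19 with no floor and -0.91 after quantile normalization. The median of 13 measured single-symbol probe sets was -0.78.

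Serpina1 genes encode the alpha-1-antitrypsin of liver. Serpina1a with Serpina1d had 4.40 and 85.0, and 1 for Serpinb9e to Serpinb9h had 1.60 and 60.9, both measured on the EiPS array only. Serpina1b alone had 4.44 and 107, and 8.42 and 130, and Serpina1c alone 104 and 148. Liver and yolk sac markers summed to 10688 and 18800 over 5 genes, 4 of them at least 2-fold higher. Among detoxifying enzymes the 3 probe sets of the Ugt1a locus, whose first exons are spliced to common ones, were higher at 496 and 749, 683 and 958, and 213 and 271. Cyp4f16 with Cyp4f37 had 104 and 210. On the other side, Akr1c12 with Akr1c13 had 386 and 269 and Cyp2a4 with Cyp2a5 had 552 and 439. The Prl2c genes, proliferins of the placenta, had 87.5 and 372, 4.25-fold higher.

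Probe sets that carry a small RNA symbol formed a group, and they read the longer transcript and not the mature small RNA. Membership was set by symbol, so not every small RNA of the group need lie inside its partner gene. Dnm3os, transcribed opposite to Dnm3, is the host of miR-214, and H19, a maternally expressed imprinted transcript, is the host of miR-675. Their mature sequences, from RefSeq on GRCm38.p6, are shown with the seed (bases 2 to 8) in capitals, as examples of miRNA hosts at least 2-fold higher in EiPS. None of the 4 seeds is the same.
miR-214-5p, chr1:162223397-162223418, plus strand: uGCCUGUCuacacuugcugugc
miR-214-3p, chr1:162223438-162223459, plus strand: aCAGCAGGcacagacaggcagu
miR-675-5p, chr7:142577112-142577133, minus strand: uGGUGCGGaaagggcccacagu
miR-675-3p, chr7:142577078-142577099, minus strand: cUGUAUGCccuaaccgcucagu
Dnm3os with Mir214 had 35.9 in B6 ES and 276 in EiPS on one probe set and 27.6 and 183 on another, 7.69-fold and 6.61-fold higher. H19 with Mir675 had 2385 and 8263, 3.46-fold higher. Gas5, a host of small nucleolar RNAs, shared a probe set with Snord47 at 192 and 669, 3.48-fold higher. The 4 probe sets of Gas5 alone had log2 differences of 1.09, 1.09, 2.04 and 2.24, so all 5 were higher. A clone hosting Mir5136 had 60.9 and 187. Kctd12, an auxiliary subunit of GABA-B receptors, with Mir5130, went the other way at 1181 and 643. Of 9 measured probe sets 8 were higher, against 72% of all shared probe sets. The 5 at least 2-fold higher, 55.6% against 13% of all shared probe sets, cover 4 hosts, since Dnm3os has 2 of them. Nothing here measures the miRNAs themselves.

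Another imprinted unit was lower. Snurf and Snrpn are made from a single paternally expressed transcript, and their 4 probe sets had 4286 and 3623, 3407 and 2855, 3593 and 2448, and 3287 and 1866. The log2 differences ran from -0.24 to -0.82 and all were lower in EiPS. Their median was -0.40, or -0.35 after quantile normalization. A probe set for Snrpn alone, with 118 and 133, had a difference of 0.18.

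Alpha protocadherins are adhesion proteins of neurons whose variable first exons are joined to common ones. The 3 probe sets that carry 14 of their symbols had 434 and 190, 1335 and 704, and 278 and 156, or 2.29-fold, 1.90-fold and 1.78-fold lower in EiPS. Another pair, under the floor in B6 ES, had 4.65 and 33.3, and 4.64 and 32.8. Over the 5 measured the median was -0.83, and with no floor it turned to 0.03. Tuba3a with Tuba3b, alpha tubulins, had 932 and 512 on one probe set and 396 and 412 on another. Tuba1b with a predicted gene had 12336 and 12203. Shared probe sets of Tuba1a and Tuba1c were higher, at 52.2 and 77.9, 268 and 332, and 78.0 and 93.6. Tuba1a alone was far brighter and nearly level, at 14278 and 14416. Of 7 shared tubulin probe sets 4 were thus higher and 3 lower. Their median of 0.06 turned to -0.07 with equal medians. Of 18 measured tubulin probe sets with 1 symbol, 6 were higher and 12 lower, with a median of -0.34. Neuron markers summed to 13975 and 6049 over 5 genes, 2 of them at least 2-fold lower. Their part was not tested.

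Arxes1 and Arxes2, a pair from the adipocyte-related X-chromosome expressed sequences, had identical windows over all 300 bases. Their probe sets had 1848 and 879, and 2682 and 1768, or 2.10-fold and 1.52-fold lower. Spermine synthase, Sms, with a pseudogene, had 164 and 77.3 on one probe set, 918 and 664 on another and 942 and 756 on the last. Phactr1 with Chst11, genes on different chromosomes, had 379 and 166, 2.29-fold lower. On its own probe set Phactr1, a regulator of actin, had 246 and 94.7, while Chst11, a chondroitin sulphotransferase, had 19.2 and 38.7. Schip1, shared with a read-through gene of Iqcj, had 2260 and 1183. The shared value of Phactr1 with Chst11 thus had the direction of Phactr1 alone.

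Hox genes that share transcripts were higher: Hoxd3 with Hoxd4 had 38.2 and 111, and 22.7 and 60.9, and Hoxb7 with Hoxb8 had 61.1 and 91.9. The 25 measured Hox probe sets with 1 symbol had a median of 0.23, with 10 of them lower. The myosins of heart muscle, Myh6 and Myh7, had 175 and 142 on their shared probe set. Alone, Myh6 had 135 and 56.1 and Myh7 had 313 and 403, so the genes differed in direction and the shared value lay between them.

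Ribosomal proteins, whose processed pseudogenes are the most common of all, formed the largest group with 98 probe sets. Of 94 measured, 90 were higher in EiPS and 4 lower as scaled, with a median log2 difference of 0.35, which was 0.15 after quantile normalization and 0.23 with equal medians. Single-symbol ribosomal probe sets had a median of 0.34 over 100 measured. Among 80 shared ones with a mean signal of 1000 or more, the values ran from -0.82 to 0.88 and none reached 2-fold. The 5 that did had low signals. Rpl11 with Gm5093 had 24.5 and 125, while Rpl11 alone had 8765 and 11063, 1.26-fold higher. Rpl30 had 23.9 and 119, Rps13 52.9 and 200, Rpl3 79.2 and 179, and Rpl9 15.2 and 63.5. The other probe sets of Rps13 had differences of 0.39, 0.53 and 0.56. On the lower side the probe sets of Rpl5 had 1688 and 953, and 1350 and 1022, but another was higher by 0.43. Without the ribosomal group, 68 of 467 shared probe sets were at least 2-fold higher, or 14.6%, so the share did not depend on it.

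Other housekeeping families differed little. The 9 respiratory chain probe sets ran from -0.36 to 0.09 with a median of -0.13, or -0.26 with equal medians. The median of 154 single-symbol ones was -0.15. The 7 of Prdx1, a peroxidase, and Ftl1, the ferritin light chain, were all higher, between 0.21 and 0.54. RNA-binding and spliceosome probe sets had a median of 0.18, or 0.05 with equal medians, led by Hnrnpa1 at 1502 and 2934, 1637 and 2872, and 1570 and 2486. The medians of ubiquitin, zinc finger, fatty acyl, actin and non-histone chromatin groups lay between 0.03 and 0.12 and turned negative with equal medians.

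Replication-dependent histone genes are made in S phase and lie in clusters of near-identical copies, while variants such as H2az1 and H3f3b are made throughout the cycle. Of 20 measured probe sets of both kinds 16 were higher, against 72% of all shared probe sets. Replication-dependent genes gave the 4 that reached 2-fold, or 20%, against 13% of all shared probe sets. Of these, the H2ac genes at 1.005 and H3c2 with H3c10, a bound of 1.001, only just did. Of 22 measured histone probe sets with 1 symbol 14 were higher, with a median of 0.14, and 0 reached 2-fold. The H4 genes had 148 and 379, and 79.6 and 176, but 41.8 and 46.5 on another probe set. The H2A genes of the H2ac series had 2665 and 5349. The H2B genes had 3271 and 3070, and 3663 and 3378. Thus the H2A probe set was about 2-fold higher, while both H2B probe sets were slightly lower. Markers of dividing cells summed to 4652 and 5592 over 5 genes, and 0 reached 2-fold. Hjurp, the chaperone that loads the centromeric histone, shared 3 probe sets with a pair of clones. They had 32.0 and 176, 58.4 and 228, and 429 and 970, or 5.50-fold, 3.90-fold and 2.26-fold higher. The folds were smaller where the signal was larger.

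Of the 96 probe sets that join differently named genes, 81 join genes within 1 Mb of each other. Parp10, an ADP-ribosyltransferase, with Plec, the linker protein plectin, had 79.5 in B6 ES and 171 in EiPS. Plec alone went the other way, at 2522 and 2132, and 915 and 845. Prnd, the prion-like protein doppel, with Prn had 138 and 280, and Tmem35b with Zmym6 had 192 and 398. Zgpat with Lime1, a T cell adaptor, had 102 and 213 on one probe set and 167 and 264 on another. Zgpat alone had 196 and 157, and 140 and 275. Of the lower ones, Exoc6 with Sh3glb1, which shapes membranes, had 403 and 227 on one probe set and 355 and 265 on another. Exoc6 and Sh3glb1 were also lower alone, on all 5 of their own probe sets. Ramp2 with Vps25 had 702 and 501, but Ramp2 alone had 761 and 775 and Vps25 alone 36.1 and 52.5.

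Among paralogues with smaller differences, Ceacam1 with Ceacam2, adhesion proteins of epithelia and leukocytes, had 280 and 471. Raet1d with Raet1e, ligands of the activating receptor NKG2D, had 6.51 and 62.6 and was measured in EiPS only. Lower were Nudt10 with Nudt11, which hydrolyse inositol pyrophosphates, at 419 and 268, and Rtl8a with Rtl8b, genes derived from a retrotransposon, at 794 and 540. The translation factor genes Eif3j1 and Eif3j2 had 392 and 251. In the secretory pathway the cargo receptors Tmed2 and Tmed10 were higher on all 10 of their probe sets, between 0.08 and 0.42, of which the 2 smallest would turn with equal medians, while the 3 of Srp54a, Srp54b and Srp54c, the signal sequence binder, were lower, between -0.44 and -0.38. The directions of Srp54 and Tmed thus differed inside the group.

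The Pisd pseudogenes, copies of the mitochondrial phosphatidylserine decarboxylase gene, had 4 shared probe sets. Pisd-ps1 with Pisd-ps3 had 207 and 984, 1074 and 3009, and 132 and 349, and the probe set that also carries Pisd had 950 and 2247. All 4 were at least 2-fold higher in EiPS. The probe sets of Pisd-ps3 alone had 1021 and 2572, and 641 and 1604. Sfi1, a centriole protein that shared its sequence with a predicted copy, had 90.8 and 283, and 46.8 and 156.

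Placement divided the members. The genes of 300 shared probe sets overlapped or lay with gaps of at most 1 Mb on the same chromosome, and 47 of their 212 measured probe sets, or 22.2%, were at least 2-fold higher in EiPS. Of 295 whose genes lay on different chromosomes, 281 were measured and 14, or 4.98%, were that much higher. For 35 measured probe sets whose genes lay further apart on 1 chromosome the count was 8, or 22.9%, and for 33 with fewer than 2 placed genes it was 4, or 12.1%. The first 2 classes also differed in signal, with medians in B6 ES of 61 and 1803, and low signals vary more. Within bands of the mean signal of both arrays their shares were 32.4% against 18.2% under 100, 15.1% against 9.76% from 100 to 1000, and 22.9% against 1.13% from 1000 up. Probe sets with 1 symbol gave 12.2%, 4.63% and 2.03% in the same bands. In each band genes within 1 Mb had a larger share than genes on different chromosomes or probe sets with 1 symbol. The other classes, with 6 to 19 measured per band, gave 40% and 25% under 100, 11.8% and 33.3% from 100 to 1000, and 25% and 0% from 1000 up, for genes further apart and for fewer than 2 placed. Many of these probe sets measure the same cluster, so they are not independent.

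By relation of the genes, named paralogues had 35 of 164 measured at least 2-fold higher, or 21.3%, and named genes with copies had 18 of 295, or 6.10%. The differently named genes had 10 of 80, or 12.5%. Probe set design differed as well: 18.4% of the shared probe sets end in _s_at, Affymetrix's suffix for probes common to several transcripts, against 6.25% of single-symbol ones. For _x_at, in which some probes match other sequences, the shares were 17.2% and 6.29%. Without the _x_at probe sets, 58 of 457 were at least 2-fold higher.

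With 1 array per group, probe sets of the same symbols give the only measure of spread, which covers the probes and not the animals. In 96 symbol groups with at least 2 such values measured on each array, the pooled SD of the log2 difference was 0.26. It was 0.36 for probe sets with a mean signal under 100, from only 5 groups, 0.29 from 100 to 1000 and 0.20 from 1000 up. For 3799 genes with several single-symbol probe sets the pooled SD was 0.40, and it was 0.54 for those with a mean signal under 100. In 24 of the 96 symbol groups the probe sets differed in sign. Differences named above as at least 2-fold were picked for their size, so that they exceed these SDs does not set them apart. Some of them are bounds. Probe sets of the same symbol group spanned 1.39 for Rps13, 1.28 for Hjurp and 1.21 for the H4 genes. Differences under about 0.3 lie within or near these SDs.

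Shared probe sets could be set against the own probe sets of their genes in 166 cases from 121 symbol groups. The differences had the same sign in 122, or 73.5%, and their median distance was 0.29 on the log2 scale. For own probe sets against other own probe sets of the same gene the figures were 70% and 0.26, over 9612. In 17 cases, or 10.2%, the distance was at least 1, against 5.35% for own probe sets.

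The largest distance was for transferrin, Trf, an iron carrier of plasma, which shared a probe set with Srprb, a subunit of the signal recognition particle receptor. The shared probe set had 459 in B6 ES and 1699 in EiPS, while the 3 probe sets of Srprb alone had differences from -0.42 to -0.14. Srprb thus did not follow the shared value. The probe set of Adam1a and Mapkapk5 had 41.0 and 122, a difference of 1.57, against -0.42 for Mapkapk5 alone. Adam1a alone had 30.7 and 21.8, also lower in EiPS. The probe set of Cpt1b, which imports fatty acids into muscle mitochondria, and Chkb had 219 and 127, against 0.98 for Chkb alone. Skeletal muscle markers summed to 49211 and 24993 over 5 genes, and their part was not tested.

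Some distances set a bright shared probe set against a dim own one, and others a dim shared one. Cbx3, a heterochromatin protein, had 3950 and 3883 on a shared probe set and 81.3 and 32.1 on its own. The dynein light chains Dynlt1a, Dynlt1b, Dynlt1c and Dynlt1f had 6405 and 6196, while Dynlt1f alone had 134 and 319. Xndc1 with Trpc2 had 91.0 and 129, a difference of 0.51 against 2.01 for Trpc2 alone. Parp10 with Plec lay 1.28 above Plec alone, and Abhd18 with a predicted gene 1.25 above Abhd18 alone. In contrast, Thbs1, the matrix protein thrombospondin, shared a probe set with Pald1 at 426 and 1459. Thbs1 alone had 61.5 and 133, and 97.2 and 290, and Pald1 alone 440 and 667, all higher in EiPS.

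The 130 shared probe sets under the floor on both arrays include all 11 of chemosensory receptors, whose family, through its single-symbol probe sets, set the floor, as well as the T cell receptor gamma probe set and 6 of the 7 of the t-complex genes Tcp10, Tcte3 and Smok3. Just under the 2-fold threshold lay 5 probe sets with a log2 difference between 0.9 and 1.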

How the data were processed

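Total RNA of pooled mouse teratomas was measured on 2 Affymetrix arrays, 1 per group. The deposited intensity values are linear signals per probe set, made by the authors with MAS5 in Affymetrix Expression Console per the submitters' processing notes; detection calls were not used here. Both arrays have the same 2% trimmed mean, 500.2, and medians of 179 and 196. A higher or lower signal on one array can therefore depend on this scaling. Array values carry no read depth, and their number limits the precision.

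Gene symbols came from the platform annotation; 1122 Entrez identifiers of the 1161 symbols were found in a RefSeq table, and the others kept the annotation's symbol. Signals were raised to a floor of 26, the 90th percentile of 72 single-symbol chemosensory receptor probe sets, and compared as log2 EiPS minus B6 ES with Python 3.11.15, pandas 2.3.3 and numpy 2.4.6. The mean signal is geometric. Windows around gene starts were aligned pairwise with Biopython 1.88. With 1 array per group no test was run, and each difference has no replicate check. The calculation was tested on simulated data.

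Gene groups were defined by symbol patterns, with a probe set placed in a group when 2 or more of its symbols match or when its named gene does. These patterns were revised after the values were seen. The members and lists were chosen with earlier results of these data known. Probe sets named were drawn from the 12 largest differences in each direction above the floor on both arrays. Further sources were the 6 brightest in each direction above it on 1 array, and the 6 furthest from their genes' own probe sets. Up to 4 per group with 3 or more measured were also drawn on. Not every probe set of these lists is named. Others were chosen after their values were seen. Alternatives were quantile normalization, arrays set to equal medians, other floors or none, log2(signal + 64), other probe set and symbol rules, and other group membership.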

Additional observations from a re-analysis of the deposited data

How the results depend on the processing

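Both pools are single arrays, so the processing was varied in place of replicates. No paired analysis was possible because each group has 1 array. Of the 561 measured shared probe sets, 73 exceeded B6 ES by 2-fold or more in EiPS and 5 fell short by as much. With no floor these counts were 135 and 32 of 691, with log2(signal + 64) 41 and 1, and with a floor of 100, chosen after seeing the data, 38 and 3. With equal medians 9 were lower. The median difference of 0.25 was 0.14 after quantile normalization and 0.13 with equal medians, and above the median of all probe sets in every setting tried. The other planned settings kept both counts within 1.5 times and the median near its value. Of 253 group medians recomputed over 27 groups, 158 moved by no more than 0.1, 68 moved by more and 27 changed sign. Changes of sign were as follows. Zinc finger proteins had -0.18 with a floor at the 98th percentile, -0.13 after quantile normalization, -0.094 with equal medians and -0.073 with a floor of 100. The ubiquitin group had -0.061 with no floor, -0.046 after quantile normalization, -0.10 with equal medians, -0.004 with log2(signal + 64), and -0.018 both without _x_at probe sets and with a floor of 100. Tubulins had -0.069 with equal medians, -0.016 with a floor of 100, and -0.14 both without predicted symbols and with every symbol required in the group. Salivary families had 0.19 with no floor, 0.029 with log2(signal + 64), and 0.043 both without _x_at probe sets and with every symbol required. Protocadherins had 0.031 with no floor. With equal medians the fatty acyl group had -0.010, chromatin proteins -0.052 and the actin group -0.017. Without predicted symbols, and again with every symbol required, chromatin proteins had -0.025 and the actin group -0.044. RNA-binding proteins had -0.086 with every symbol required. The cause was not tested.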
